A study of Bos taurus with 72 samples.

Results

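Blood was compared at feedlot entry between 6 cattle whose library titles end in a number above 100 and 18 cattle whose titles end in a number of 98 or less. These 24 entry libraries are part of a series of 72, in which the same 24 male beef cattle were sampled again at the stages named pulled and close-out. The 6 are animals 2 to 7, and the title numbers of the 18 run from 6 to 98. The division is no group of the study. It was chosen by the scores of the entry libraries on their main component of variation, in an earlier look at these counts, so every difference between the sets at entry is given here as a description. Differences between the sets are tested only in libraries from pulled and close-out, which the division did not use. Both sets share sex, tissue, collection into PAXgene tubes, which stabilise RNA at the moment of sampling, and poly-A selected libraries. The labels state no diagnosis, treatment, breed, age, arrival date or sequencing batch for any animal. A batch of libraries and the state of the cattle on arrival therefore cannot be told apart.

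Bovine respiratory disease is the common name for pneumonia of newly arrived feedlot cattle, in which transport and mixing stress, viruses and bacteria act together. Animals are pulled from the pen when staff judge them sick, and close-out is the end of the feeding period. Whole-blood RNA comes mainly from circulating leukocytes, with a share from immature red cells and platelets, so it follows both the mix of cells and the activity within them. In such bulk samples fewer cells of a type and less RNA per cell cannot be told apart. The counts carry Ensembl identifiers that are not paired with gene names in the sources used here. Blood-cell markers and pathway lists were therefore not analysed here, and genes are given by identifier with no statement of their function.

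The depth at entry, in megareads of counted reads (M), lay between 16.4 M and 19.2 M in the 6 libraries and between 9.86 M and 24.3 M in the 18. By the labels each animal was sampled once per stage, and the p-values below measure the spread between animals. The edgeR fit of all 72 libraries is 1 exception, since it takes libraries of the same animal as independent. Library identity was checked over the 100 genes whose differences among 22 animals repeated best from stage to stage. Among those 22 animals, 2 libraries of the same animal had a correlation of 0.839 or more, and libraries of different animals 0.489 or less. The genes were chosen in these same 22 animals, which favours such a gap, while animals 9 and 12 were outside the choice. For animal 9, the library labelled pulled had a correlation of -0.05 with its own entry library and of 0.972 with the entry library of animal 11. Animal 11 has a library labelled pulled of its own. Tests with all 24 pulled libraries may therefore take 2 libraries of animal 11 as 2 animals. For animal 12, the library labelled pulled had 0.15 with its own entry library and no more than 0.205 with any other. Both animals have title numbers of 98 or less. The entry libraries of animals 9 and 12 matched their own close-out libraries, at 0.898 and 0.963. The main results at pulled are therefore also given without the doubted pulled libraries of animals 9 and 12.

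The first principal component of the 24 entry libraries held 54.5% of the variance of log2 CPM, which is counts scaled to library size, and the second held 11.2%. On the first component the 6 libraries lay at 54.6, 79.9 and 124.6 (lowest, median and highest), and the 18 at -74.8, -23.6 and 17.7. The sets did not overlap, and the gap between them was narrower than the range of the scores within either set. By title number, the neighbours across the division were animal 24 (number 98), at -18.5, and animal 2, at 124.6. The highest of the 18 was animal 13 (number 48) and the lowest of the 6 was animal 5. Pairs of libraries within the 6 correlated across genes at a median of 0.972 (15 pairs) and within the 18 at 0.967 (153 pairs). The pairs that crossed the sets had a median of 0.918.

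**Figure D1:**
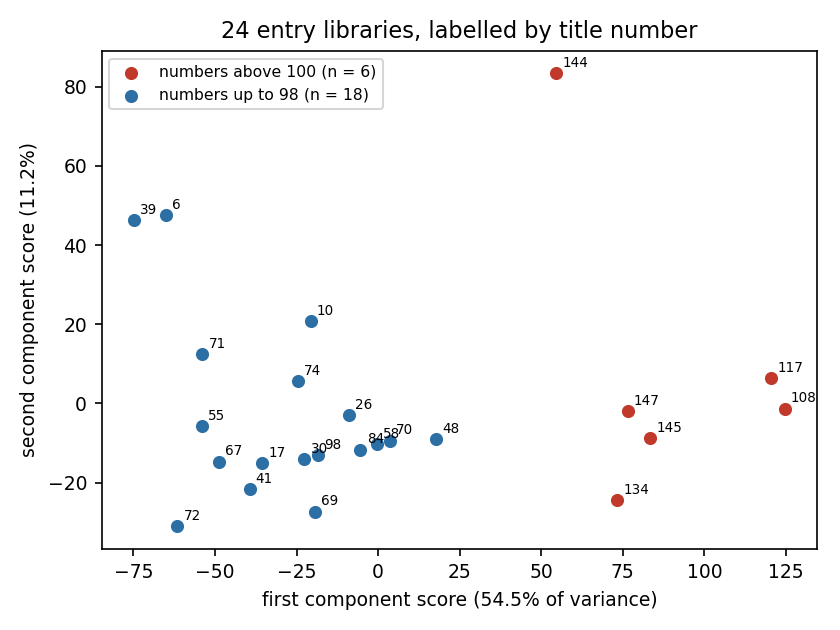
Scores of the 24 entry libraries on the first component (horizontal) and the second component (vertical) of log2 CPM, each point labelled by its title number. The 6 libraries with numbers above 100 all lie at 54.6 or more on the first component and the 18 others at 17.7 or less, while animal 5 of the 6 stands apart on the second component at 83.4.

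At entry, 4376 of 12878 tested genes (34.0%) were higher and 4840 (37.6%) were lower in the 6 animals at an adjusted p under 0.05 in edgeR. Because the sets were chosen on these libraries, the counts show the width of the division and are no test of it. With numbers up to 98 as the base, higher genes had a median log2 fold change of 0.81 and lower genes one of -1.21. Changes beyond 2-fold were found in 1344 higher and 2970 lower genes, and log2 fold changes reached 3.47 and -5.92. In 1366 genes (10.6%) every one of the 6 libraries lay above all 18, and in 1876 genes (14.6%) every one lay below. The TMM method, which sets libraries on a common scale by the bulk of their genes, put the median of all tested genes at a log2 fold change of -0.05. With library totals only, that median was -0.54, and 1967 genes were higher and 6818 lower. This scaling moves all genes down by about the same amount in the 6, and the share of higher genes among those past the threshold was 22.4% with it and 47.5% with TMM. Of the 4376 genes higher under TMM, 767 had a negative fold change under library totals, so for these the direction holds on the TMM scale only among these 2 scalings.

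ENSBTAG00000017816 and ENSBTAG00000040190 had the largest positive log2 fold changes at entry among genes whose sets did not overlap and whose direction was the same under 3 scalings. ENSBTAG00000008285 and ENSBTAG00000019704 had the largest negative ones by the same rule. They are 4 of 1303 higher and 1719 lower genes that met the rule before ranking.

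ENSBTAG00000017816 stood at 2.51, 3.16 and 3.66 log2 CPM in the 6 entry libraries (lowest, median and highest) and at 0.38, 1.36 and 1.79 in the 18. Every library of the 6 was above every library of the 18, and the log2 fold change was 1.93 (SE 0.19). At pulled the 6 ran from 1.48 to 2.36 and the 18 from 0.00 to 2.88, and the log2 fold change was -0.12 (SE 0.27, edgeR adjusted p = 0.85). At close-out the log2 fold change was -0.16 (SE 0.19, edgeR adjusted p = 0.849). Without the doubted libraries of animals 9 and 12 the pulled value was -0.15 (edgeR adjusted p = 0.756). The sets overlapped at both later stages.

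ENSBTAG00000040190 is far more abundant. Its entry values were 8.91, 9.45 and 10.1 log2 CPM in the 6 and 7.07, 7.87 and 8.35 in the 18, a log2 fold change of 1.72 (SE 0.17). At pulled the 6 ran from 8.55 to 10.1 and the 18 from 7.96 to 9.79. The difference at pulled was 0.17 (SE 0.21, edgeR adjusted p = 0.701) and at close-out -0.02 (SE 0.26, edgeR adjusted p = 0.993). Without the doubted libraries of animals 9 and 12 the pulled value was 0.15 (edgeR adjusted p = 0.645). Scaled over all 72 libraries, the 18 had a mean of 7.77 ± 0.34 at entry and 9.10 ± 0.41 at pulled, and the 6 had 9.44 ± 0.57 and 9.24 ± 0.58 (SD, n = 18 and 6). At close-out the 6 had 8.56 ± 0.37 and the 18 had 8.47 ± 0.63 (SD, n = 6 and 18). The level of the 6 at entry was thus close to that of both sets at pulled and above both at close-out. The 18 were lower at entry than either set at both later stages.

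ENSBTAG00000008285 was nearly unread in the 6 entry libraries, with 2 to 9 counts, against 15 to 413 counts in the 18. In log2 CPM the 6 lay at -1.85, -1.12 and -0.49, and the 18 at 0.60, 2.68 and 4.15, a log2 fold change of -4.33 (SE 0.53). At pulled the counts were 8 to 42 in the 6 and 3 to 262 in the 18. The 262 counts were in the doubted library labelled pulled of animal 9, and the next highest of the 18 had 47. The difference was -0.08 (SE 0.65, edgeR adjusted p = 0.961) at pulled and -0.14 (SE 0.60, edgeR adjusted p = 0.977) at close-out. The sign depended on the fit, since mean log2 CPM was higher in the 6 at pulled (0.59 against 0.04) and at close-out (0.97 against 0.88), and limma-voom gave 0.64 and 0.08. At pulled it also depended on the doubted library of animal 9, without which edgeR gave 0.72 (edgeR adjusted p = 0.245). No direction at these stages is drawn.

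ENSBTAG00000019704 had 0 to 15 counts in the 6 entry libraries and 30 to 401 in the 18, with a log2 fold change of -4.27 (SE 0.54). Its log2 CPM ran from -3.17 to 0.15 in the 6, with a median of -1.10, and from 1.55 to 4.14 in the 18, with a median of 2.85. At pulled the difference was 0.24 (SE 0.61, edgeR adjusted p = 0.868), and at close-out it was -0.31 (SE 0.72, edgeR adjusted p = 0.943). At close-out the mean log2 CPM was higher in the 6 (1.14 against 0.85) and limma-voom gave 0.31, so the sign depended on the fit there too. Scaled over all 72 libraries, the entry mean of the 6 (-1.20 ± 1.12, SD, n = 6) was below, and that of the 18 (2.87 ± 0.83, SD, n = 18) above, the means of both sets at both later stages, which ran from 0.39 to 1.11. With the doubted pulled libraries of animals 9 and 12 left out, the difference at pulled was 0.93 for ENSBTAG00000019704 (edgeR adjusted p = 0.133) and 0.80 for ENSBTAG00000008285 (edgeR adjusted p = 0.187).

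**Figure D2:**
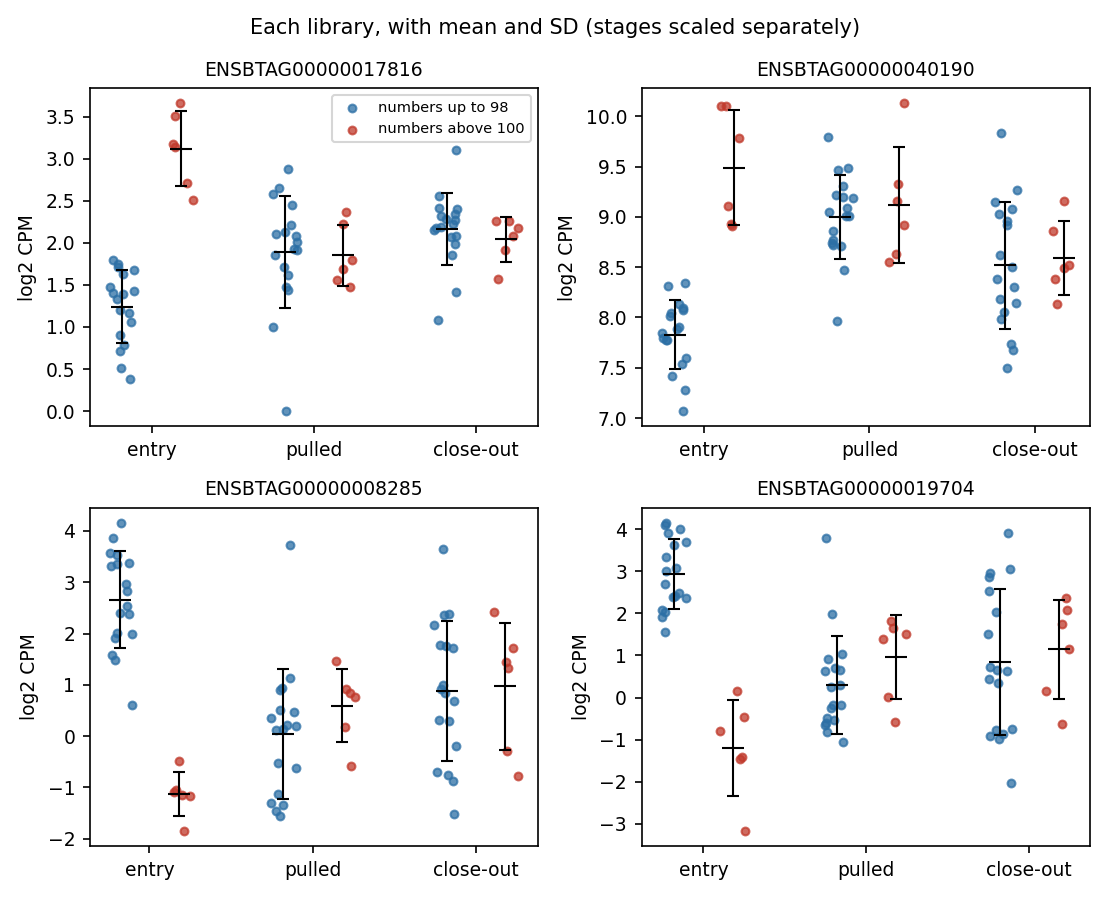
Log2 CPM of the 4 genes in every library by stage, in blue for the 18 animals and red for the 6, with mean and SD in black; each stage was scaled on its own 24 libraries. The sets are separate at entry in all 4 genes and overlap at pulled and close-out.

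The genes that were higher in the 6 were mostly abundant ones, and the lower genes were mostly of low or middle abundance. Genes were split into 10 equal abundance classes, from 1 (lowest) to 10 (highest), by their mean log2 CPM at pulled and close-out, which by their labels share no library with the entry comparison. In class 10, 73.5% of genes were higher and 6.21% lower in the 6, with a median log2 fold change of 0.69. In class 1, 9.47% were higher and 44.4% lower, with a median of -0.67. The share of lower genes was largest in class 4, at 55.2%, and the share of higher genes was larger in each class than in the one before. With library totals only, the medians of classes 1 and 10 were -1.15 and 0.20, each shifted down by a like amount.

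**Figure D3:**
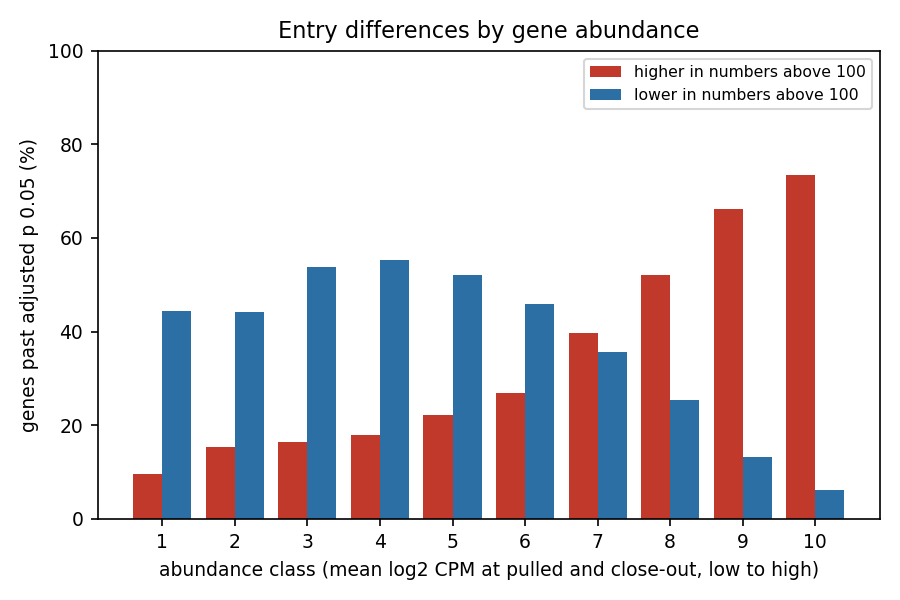
Percent of genes past an adjusted p of 0.05 at entry that were higher (red) or lower (blue) in the 6 animals, in 10 classes of abundance from low to high. The higher share climbs from 9.47% to 73.5%, and the lower share falls from 55.2% in class 4 to 6.21% in class 10.

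Fewer genes carried the counts of the 6 entry libraries. The most abundant genes that together held 50% of the counts numbered 306, 390 and 439 in the 6 (lowest, median and highest) and 427, 532 and 730 in the 18, so the ranges met only at their ends. The TMM factor was 0.647 to 0.892 in the 6 and 0.941 to 1.299 in the 18, with no overlap. The single most abundant gene held a like share in both, 1.75% ± 0.19 (SD, n = 6) and 1.70% ± 0.295 (SD, n = 18). RNA integrity per library is not given in the sources used here, and its part in these values was not tested. At the later stages the mean of the 6 was the higher one, but the ranges overlapped. They were 454 to 676 in the 6 and 371 to 596 in the 18 at pulled. At close-out the range of the 6, 524 to 676, lay within that of the 18, 334 to 737. Genes holding 50% of the counts averaged 554 ± 96.0 in the 6 and 454 ± 63.9 in the 18 at pulled, and 589 ± 57.1 and 489 ± 125 at close-out (SD, n = 6 and 18).

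The number of genes holding 50% of the counts was not tested. Total counts, the TMM factor, the number of genes with a count and the share of the 10 most abundant genes were tested at pulled and close-out by an exact two-sided permutation test with adjustment over 8 tests, and none passed the threshold. At pulled the 10 most abundant genes held 6.53% ± 1.41 of counts in the 6 and 7.83% ± 1.02 in the 18 (exact permutation p = 0.0211, adjusted p = 0.169, SD, n = 6 and 18). The TMM factor at pulled was 1.08 ± 0.128 in the 6 and 0.981 ± 0.101 in the 18 (exact permutation p = 0.0592, adjusted p = 0.221). At close-out the TMM factors were 1.09 ± 0.0748 and 0.986 ± 0.163 (exact permutation p = 0.168, adjusted p = 0.336). Total counts and the number of genes with a count had adjusted p of 0.563 or more at both stages by the exact permutation test. Without the doubted pulled libraries of animals 9 and 12, the smallest adjusted p at pulled was 0.139 (exact permutation, 4 measures).

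Within the sets at entry, the spread of single genes was slightly wider in the 6 than in the 18. Pairs of libraries, by contrast, correlated at a slightly higher median within the 6 (0.972) than within the 18 (0.967). Over 10561 genes averaging 1 log2 CPM or more, the median SD was 0.36 in the 6 and 0.31 in the 18, and 63.2% of genes had the wider spread in the 6. At pulled the median SDs were 0.43 and 0.41, with 58.4% of genes wider in the 6. At close-out the order was the other way round, with median SDs of 0.29 in the 6 and 0.39 in the 18 and 25.1% of genes wider in the 6. Animal 5 stood apart from the other 5 of its set on the second entry component, at 83.4 against -24.5 to 6.41. Without animal 5, 4350 genes were higher and 5035 lower at entry, the most lower genes found when any 1 animal was left out.

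The sets lay on opposite sides of the later levels. On 1 TMM scale over all 72 libraries, genes higher in the 6 had a median entry level 0.41 above the mean of the 4 later groups in the 6 animals and 0.38 below it in the 18 (log2 units). Genes lower in the 6 were 0.64 below in the 6 animals and 0.54 above in the 18. For 2590 of the 4376 higher genes (59.2%), the entry mean of the 6 was above, and that of the 18 below, all 4 group means of pulled and close-out. The mirrored arrangement held for 3408 of the 4840 lower genes (70.4%). Only the 6 lay outside the 4 later means in 841 higher and 782 lower genes, and only the 18 in 729 and 450. Over all tested genes the 2 arrangements made up 20.6% and 27.2%. Since the genes were chosen for a difference at entry, these shares are a description. Without the doubted pulled libraries of animals 9 and 12 the first shares were 58.5% and 69.6%.

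All 72 libraries were then placed on the first entry component. At pulled the 6 lay at -22.8, 8.48 and 68.8 (lowest, median and highest) and the 18 at -71.2, 48.03 and 80.0. The lowest of the 18 was the library labelled pulled of animal 9, and without animals 9 and 12 the other 16 began at -4.54. At close-out the 6 ran from -9.78 to 55.7 and the 18 from -53.0 to 88.1. The 6 thus lay above the 18 at entry, mostly below them at pulled, and among them at close-out.

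**Figure D4:**
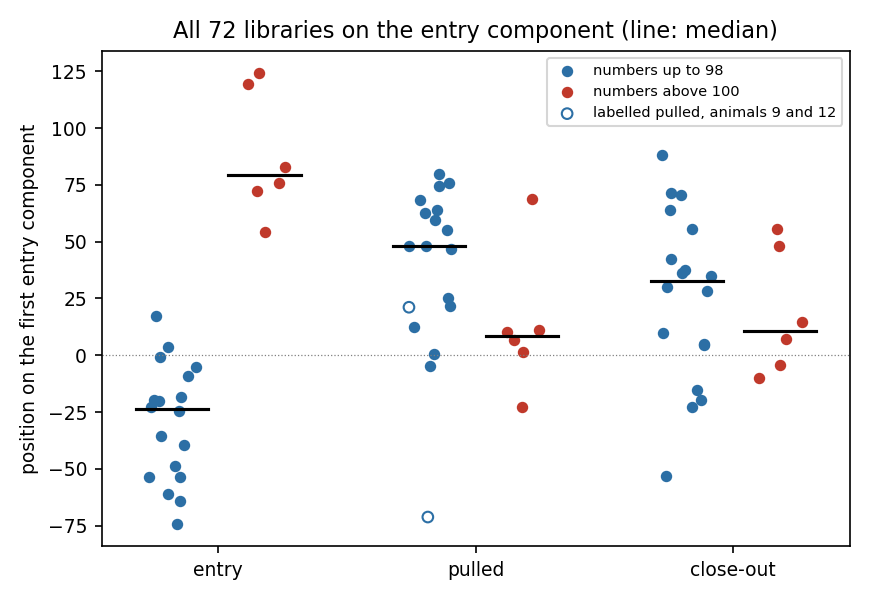
Position of each of the 72 libraries on the first entry component, by stage and set, with medians as lines and the libraries labelled pulled of animals 9 and 12 as open circles. The sets are apart at entry only; at pulled the median of the 6 is 8.48 against 48.03 for the 18.

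At pulled, 0 genes were higher (0.00%) and 0 lower (0.00%) in the 6 at an adjusted p under 0.05 with all 24 libraries in edgeR, the smallest adjusted p being 0.102. At an unadjusted p under 0.05 there were 2323 genes, 18.0% of those tested. DESeq2 found 127 genes and limma-voom 0, with 2170 at an unadjusted p under 0.05 in limma-voom. With all 72 libraries in 1 edgeR fit, which has no term for the animal, there were 527 genes (400 higher, 127 lower). With the animal as a replicate block in limma-voom there were 37 (25 higher, 12 lower). In 0 genes (0.00%) were all of the 6 above the 18, and in 1 gene (0.00777%), ENSBTAG00000004776, were all below, at 1.72, 2.04 and 2.19 log2 CPM against 2.29, 2.78 and 3.30. This gene, named after its values were seen, had a log2 fold change of 0.81 at entry and -0.78 at pulled (SE 0.18, edgeR adjusted p = 0.12). For ENSBTAG00000004776 the pulled value passed without the doubted libraries of animals 9 and 12 (-0.83, edgeR adjusted p = 0.0345), without animal 9 alone (edgeR adjusted p = 0.0428), in DESeq2 (adjusted p = 0.0109) and with all 72 libraries in 1 edgeR fit (adjusted p = 0.0126). With the animal as a replicate block the pulled value did not pass (-0.72, limma-voom adjusted p = 0.057). The entry value was 0.32 with library totals only and fell short of the threshold. Entry values are descriptions, since the division was chosen on those libraries.

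The count at pulled depended on the library labelled pulled of animal 9. Without the doubted pulled libraries of animals 9 and 12, 711 genes (5.52%) were higher and 279 (2.17%) lower in the 6 in edgeR, among 22 libraries. Without animal 9 alone there were 638 genes, and without animal 12 alone 0. In the 22 libraries DESeq2 found 1809 genes and limma-voom 0, with 3521 at an unadjusted p under 0.05 in limma-voom. Higher genes had a median log2 fold change of 1.01 and lower genes one of -0.59, and none passed a test against a 1.5-fold change. The smallest adjusted p in edgeR was 0.0345, close to the threshold. The count was 3161 when animal 4 was left out too, and 0 when animal 1, 3, 5, 6, 14 or 18 was.

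The differences at pulled mostly ran against those at entry. Of the 990 genes, 871 had passed at entry in the opposite direction, 20 in the same direction, and 99 had not passed at entry. Genes passing at entry made up 90.0% of the 990, and the 990 held 9.67% of the genes passing at entry, where 71.6% of all tested genes passed. In the 22 libraries 25.6% of the genes higher at entry and 53.8% of all tested genes had a positive fold change, and 18.0% of the genes lower at entry and 46.2% of all had a negative one. With all 24 libraries these shares were 30.1% and 24.3%, beside 52.7% and 47.3% of all genes. Across the 12878 genes, log2 fold changes at entry and pulled correlated at -0.55 in the 22 libraries and at -0.42 in the 24. The genes are not independent, the same animals were sampled at both stages, and no p is given.

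In edgeR, 2 genes (0.0155%) were higher in the 6 at close-out and 0 (0.00%) lower, with 1162 genes (9.02%) at an unadjusted p under 0.05. DESeq2 found 64 genes and limma-voom 5. With all 72 libraries in 1 edgeR fit there were 19 genes, and with the animal as a replicate block in limma-voom 24. In 0 genes (0.00%) were all of the 6 above, and in 0 genes (0.00%) all below, the 18. ENSBTAG00000009509 and ENSBTAG00000009595 were the 2 called genes, named after their values were seen.

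ENSBTAG00000009509 stood at 4.25, 4.57 and 4.93 log2 CPM in the 6 close-out libraries and at 3.40, 3.802 and 4.33 in the 18. Of the 18, 1 library reached the range of the 6, and the log2 fold change was 0.75 (SE 0.13, edgeR adjusted p = 0.0204). It was also higher in the 6 at entry, by 0.63 (SE 0.20), and had 0.64 at pulled (SE 0.23, edgeR adjusted p = 0.195), where 1 of the 6 reached 6.15 and their median was 4.09. Without the doubted libraries of animals 9 and 12 the pulled value was 0.63 (edgeR adjusted p = 0.0956). With all 72 libraries and no term for the animal it passed (0.64, edgeR adjusted p = 0.0434). With the animal as a replicate block it did not pass (0.38, limma-voom adjusted p = 0.182). Without animal 3 the pulled value was 0.02 (edgeR adjusted p = 0.973). With library totals only, the entry value was 0.14 and fell short of the threshold, and entry values are descriptions. With all 72 libraries the close-out value did not pass (0.77, edgeR adjusted p = 0.0736).

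ENSBTAG00000009595 stood at 5.03, 5.42 and 5.71 log2 CPM in the 6 and at 4.30, 4.64 and 5.21 in the 18 at close-out, where 2 of the 18 reached the range of the 6. The log2 fold change was 0.69 (SE 0.12, edgeR adjusted p = 0.0204). At pulled it was 0.53 (SE 0.12, edgeR adjusted p = 0.112), and without the doubted pulled libraries of animals 9 and 12 it was 0.55 (edgeR adjusted p = 0.0345). The pulled value also passed in DESeq2 (adjusted p = 0.0109), with all 72 libraries (edgeR adjusted p = 0.00146), with the animal as a replicate block (limma-voom adjusted p = 0.00851) and without animal 4 (edgeR adjusted p = 0.0453). At entry the gene had a log2 fold change of 0.05 (SE 0.09) and did not pass under TMM. With library totals only it was -0.44, the opposite direction, and past the threshold. These entry values are descriptions, since the division was chosen on those libraries. Both genes missed the threshold at close-out without animal 3, 4, 5 or 6 (edgeR adjusted p of 0.0628 to 0.232), with library totals only and with thinned counts.

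The gene pattern of the entry difference recurred among animals within a stage. The first component of the 24 close-out libraries held 37.6% of their variance, and its gene loadings correlated at 0.89 with the entry log2 fold changes across the 12878 genes. Within each of the 10 abundance classes this correlation lay between 0.75 and 0.92. With the loadings oriented by the entry fold changes, 96.0% of the genes passing at entry had a loading of the matching sign. These genes were chosen for their entry difference, and the same fold changes set the sign, so a high share was favoured in advance. The share over all tested genes was not computed, and no result is drawn from the 96.0%. The loadings of the first component correlated at 0.67 with the entry fold changes for the 22 pulled libraries (31.8% of variance) and at 0.76 for all 24 (35.2%). The correlation was 0.69 for the 18 entry libraries taken alone (28.6%) and 0.31 for the 6 (45.0%). Loadings have no fixed sign, so the sizes of these correlations are given; for the 18 and the 6, libraries are shared with the entry comparison. These are descriptions over genes that share libraries and depth.

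On that close-out component the sets overlapped. Oriented by the entry fold changes, the 6 lay at -37.6, -19.1 and 24.97 and the 18 at -81.2, 13.6 and 65.7, with 4 of the 18 below and 5 above all of the 6 (exact permutation p = 0.448, adjusted p = 0.448 over 2 tests). On the first component of the 22 pulled libraries the 6 averaged -29.9 ± 42.5 and the other 16 11.2 ± 32.8 (SD; exact permutation p = 0.0258, adjusted p = 0.0516). The fold changes of the sets at close-out correlated at -0.09 with those at entry. The largest component among animals at close-out thus had gene loadings much like the entry difference, and the sets overlapped on it.

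**Figure D5:**
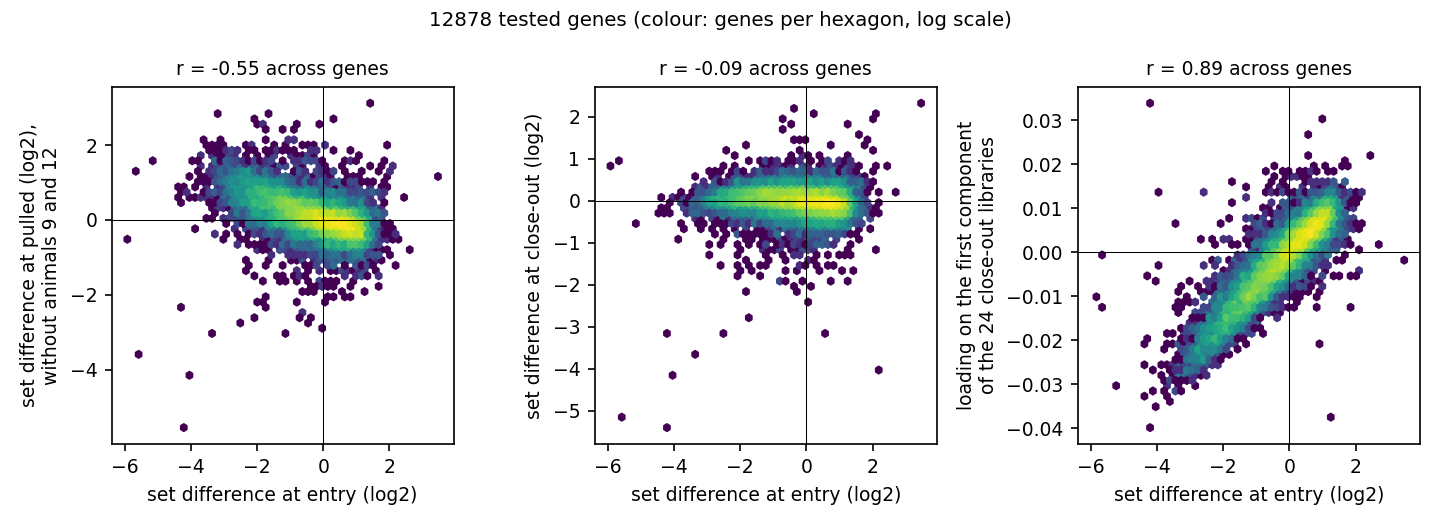
Each of the 12878 genes by its log2 difference between the sets at entry (horizontal) against its difference at pulled without animals 9 and 12 (left), its difference at close-out (middle) and its loading on the first component of the 24 close-out libraries (right). The cloud slopes down at pulled (r = -0.55), is nearly flat at close-out (r = -0.09) and slopes up for the loading (r = 0.89).

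As a description of the entry libraries within each set, title number as a linear term gave 0 genes (0.00%) among the 18 in edgeR, with 927 (7.20%) at an unadjusted p under 0.05. Among the 6 it gave 0 genes in edgeR, with 1975 (15.3%) at an unadjusted p under 0.05. These entry counts come from the libraries and the numbers that set the division and are no test of it. At pulled, 187 genes (1.45%) among the 18 and 308 (2.39%) among the 6 had an unadjusted p under 0.05 in edgeR. At close-out there were 3816 (29.6%) among the 18 and 488 (3.79%) among the 6. After adjustment 0 genes passed at either stage, the smallest edgeR adjusted p being 0.129, among the 18 at close-out.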

How the data were processed

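The authors deposited raw read counts, with Ensembl genes in rows and libraries in columns. TopHat2, HTSeq and the build UMD3.1 are named in the submitters' processing notes. For tool versions, annotation release and strand setting the answer is not given in the sources used here, so reads shared by overlapping or near-identical genes cannot be traced. Of 24616 identifiers, 0 matched the ARS-UCD2.0 gene table at hand, so the planned gene lists were not analysed here. Columns without a sample numbered 0.

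Totals ran from 8.24 M to 29.1 M (median 17.2 M). Genes passing edgeR's filter at entry (12878) were tested at each stage separately with the quasi-likelihood test (R 4.3.3, edgeR 4.0.16, TMM, Benjamini-Hochberg at 0.05), unpaired. The filter took the sets as its groups and so used the division. Its effect on the shares in the low abundance classes was not tested. Log2 CPM used a prior count of 2, and SE is the absolute log2 fold change over the square root of F. Named genes passed at entry, had a mean log2 CPM of at least 1, sets that did not overlap and 1 direction under TMM, RLE and library totals, ranked by fold change. Only the all-72-library fits join stages. The edgeR fit of 72 libraries has no term for the animal and takes libraries of the same animal as independent. The limma-voom fit of 72 libraries takes the animal number in the labels as a block. Alternatives used DESeq2 1.42.0, limma 3.58.1 and other filters. The script was tested on simulated data. The sets, lists and rules were chosen with earlier results of these data known, and the fits of 22 pulled libraries after seeing the data, except the main one.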

Additional observations from a re-analysis of the deposited data

Results flagged for a closer look

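In the groups of 6, 38 sets of values were checked for a sample far from the others, and chance marks about 1 in 20. The library at pulled of animal 4 lay at 68.8 on the first entry component, against -22.8 to 11.2 in the other 5 animals of its set. Its part in the count at pulled is given by the fit without it, 28 genes in place of 0 with the other 23 libraries in edgeR. The entry library of animal 5 lay at 83.4 on the second entry component, against -24.5 to 6.41 in the other 5.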

How the results depend on the processing

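At entry both counts stayed within 1.5 times of their values under every alternative except these. With library totals only, 1967 genes were higher, and against a 1.5-fold change 2010 were higher and 3195 lower. Leaving out each animal gave 4145 to 4410 higher and 4557 to 5035 lower genes, and leaving out entry of animal 11 gave 4377 and 4797. With a replicate block for the animal over all 72 libraries in limma-voom (consensus correlation 0.128), 4313 genes were higher and 4752 lower at entry, 37 differed at pulled and 24 at close-out. The log2 fold change of ENSBTAG00000009595 at entry was -0.44 with library totals only, the opposite direction to TMM, given as a description.

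At pulled, against 0 genes, there were 127 in DESeq2, 527 with all 72 libraries in 1 fit and 990 without the doubted pulled libraries of animals 9 and 12. Without these 2 libraries and chosen after seeing the data, there were 1809 in DESeq2, 1034 with RLE scaling, 1326 with library totals only and 1067 with at least 1 CPM in 6 libraries. With that pair kept or left out, leaving out each animal in turn gave 0 to 3161 genes. At close-out, against 2 genes, there were 64 in DESeq2, 5 in limma-voom, 4 with at least 1 CPM in 6 libraries and 19 with all 72 libraries. Scaling by library totals only, thinning to the smallest total, a threshold of 0.01 on the adjusted p and a test against 1.5-fold each gave 0 at close-out, and leaving out each animal gave 0 to 15. The cause of these changes was not tested.

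The fold changes of the 4 genes named at entry kept their side of the threshold at each stage under the 35 settings checked at entry and pulled and the 34 at close-out. The further fits of 22 pulled libraries were not checked gene by gene. The low-count falls at entry rest on few counts in the 6 libraries, which limits their size.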
